A study of Rattus norvegicus with 24 samples.

Results

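The response of RBEC4 cells to citrate-coated silver particles of 10 nm was measured against unexposed cells of the same line. The arrays were chosen by their titles, and these are the 5 arrays titled with the 10 nm citrate particle and the 4 titled as control, 9 of the 24 arrays in the series. RBEC4 is a rat brain endothelial cell line, used as a model of the capillary wall that separates blood from brain. Both groups were at 95% confluence. The citrate10 cells received 1.0 ppm of silver for 18 h and the control cells received no particle. The other groups were PVP10 and PVP75, particles of 10 and 75 nm coated with polyvinylpyrrolidone (PVP), and citrate75, a citrate-coated particle of 75 nm, each at the same dose and time with 5 arrays. Whether the numbered arrays of a group are separate cultures is not stated in the labels, so p-values here speak to the spread among these samples alone, and that spread may be technical.

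Silver particles release silver ions as they dissolve, and silver binds to thiols, so the genes usually read out after silver exposure are those for metal binding, for glutathione and thioredoxin, and for heat shock and protein degradation. Citrate is a small charged molecule held loosely at the particle surface, whereas PVP is a polymer that coats it. The gene that the comparison turned on was Slc1a2, which encodes the glutamate transporter GLT-1 (EAAT2 in humans). It is a member of the Slc1 family of sodium-coupled carriers that clear glutamate and neutral amino acids from the extracellular fluid, and in brain it is best known from astrocytes.

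Each Illumina rat BeadChip reported 22523 probes, and a probe counted as detected on an array when its detection p was under 0.01. Between 2236 and 2461 probes were detected on the 9 arrays, and 2748 probes, each standing for 1 named gene or 1 unnamed transcript, were tested. Of the tested probes 1942 were detected on all 9 arrays and 53 on none of them. Levels are background-corrected, quantile-normalized log2 intensities, and a difference between groups is written on the same log2 scale. The arrays were close to each other across the tested probes, at r between 0.993 and 0.996 within citrate10, between 0.994 and 0.996 within control, and between 0.992 and 0.996 across the groups. The 9 arrays lay on 2 BeadChips. Chip 1 held 2 citrate10 arrays and 1 control array, and chip 2 held 3 citrate10 arrays and 3 control arrays.

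Slc1a2 was the single probe of 2748 that passed the test, which is 0.0364% of those tested, and it was higher in citrate10. It was called at an adjusted p under 0.05 in limma's moderated test with the chip as a term, and 0 probes were called lower. Because it was the only called gene, the 250 bases before each of its start sites in RefSeq are shown. The gene lies on the plus strand of chromosome 3 (GRCr8, chr3:109460109-109590445) and has annotated starts 47838 bases apart. The upstream window of the first start, chr3:109459859-109460108, has a GC content of 71.2%, and that of the second, chr3:109507697-109507946, has 45.6%.
Slc1a2 first start: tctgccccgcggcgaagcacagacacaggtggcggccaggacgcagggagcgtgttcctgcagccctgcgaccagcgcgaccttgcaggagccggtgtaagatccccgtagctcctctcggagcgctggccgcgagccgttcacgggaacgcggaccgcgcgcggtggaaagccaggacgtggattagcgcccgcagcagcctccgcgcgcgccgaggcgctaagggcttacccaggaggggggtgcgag
Slc1a2 second start: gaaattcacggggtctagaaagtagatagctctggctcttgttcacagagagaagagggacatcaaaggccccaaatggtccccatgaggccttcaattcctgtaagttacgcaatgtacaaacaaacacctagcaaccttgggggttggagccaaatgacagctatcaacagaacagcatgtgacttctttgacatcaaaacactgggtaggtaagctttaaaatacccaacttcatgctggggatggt
Neither window held, on either strand, the letters of a metal response element (TGCNCNC), an antioxidant response element (TGACNNNGC), an AP-1 site (TGANTCA) or a heat shock element pair (GAANNTTC). In the same window length over 33469 rat promoters, these letters occurred in 43.4%, 10.1%, 6.34% and 7.23%, in that order. Which start was used in these cells was not measured.

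Slc1a2 levels were 6.71, 6.75, 7.32, 7.39 and 7.13 on the citrate10 arrays 1 to 5, against 5.36, 5.25, 5.44 and 5.41 on the control arrays 1 to 4. Every citrate10 array was above every control array, and the lowest citrate10 array stood clear of the highest control array by more than the spread of either group. The probe was detected on all 9 arrays. Before any correction, its bead intensity ran between 165 and 256 in citrate10, against 114 to 121 in control, so the control cells gave a low but detected signal. The group means were 7.06 ± 0.319 in citrate10 (SD, n = 5) and 5.36 ± 0.0843 in control (SD, n = 4). The difference was 1.70 on the log2 scale with a standard error of 0.183 and a 95% interval of 1.32 to 2.07, a 3.24-fold higher level (limma, adjusted p = 1.27e-06). An exact two-sided permutation test over the 126 ways to split the 9 arrays gave p = 0.0159, the smallest it can give. Every probe whose arrays do not overlap reaches this value, so it restates the separation of the arrays and adds no support of its own.

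The difference was present on both chips. On chip 1 the citrate10 arrays averaged 7.36 and the control array was 5.44, a difference of 1.91. On chip 2 the means were 6.86 in citrate10 and 5.34 in control (n = 3 each), a difference of 1.52, where the exact permutation test gave p = 0.1, its smallest possible value. Its size depended on the background correction. Without background correction the difference was 0.87, or 1.82-fold (limma, adjusted p = 0.0451), and in the authors' normalized values it was 0.87, or 1.83-fold (adjusted p = 0.0411). All of these settings placed citrate10 above control.

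**Figure D1:**
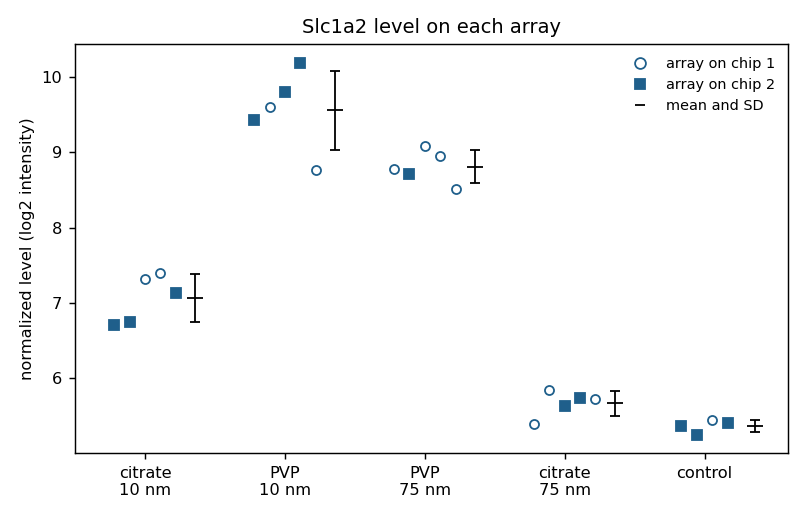
Slc1a2 level on each array (normalized log2 intensity) for the 4 particles and control, with open circles for chip 1, filled squares for chip 2, and the mean with its SD beside each group. The citrate10 arrays lie between 6.71 and 7.39, above all citrate75 and control arrays and below all PVP arrays.

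Across the whole series the Slc1a2 means took an order, and citrate10 sat in the middle of it. The PVP10 arrays had the highest mean, 9.56 ± 0.525, followed by PVP75 at 8.81 ± 0.218, citrate10 at 7.06 ± 0.319, citrate75 at 5.67 ± 0.169 and control at 5.36 ± 0.0843. These are SDs over 5 arrays, and over 4 in control. At both ends of the order the arrays overlapped. The lowest PVP10 array, at 8.77, was below the highest PVP75 array, at 9.08. The lowest citrate75 array, at 5.40, was below the highest control array, at 5.44. Citrate10 was separated from both of its neighbours in this order. It was higher than citrate75 by 1.39 (SE 0.174, limma adjusted p = 2.50e-05), and no citrate10 array fell to the highest citrate75 array, at 5.85. Its difference from PVP75 was -1.75 (SE 0.179, limma adjusted p = 1.19e-07), and no citrate10 array reached the lowest PVP75 array, at 8.51. Against PVP10, the particle of the same size with the other coating, the difference was -2.50 (SE 0.172, limma adjusted p = 1.71e-12). On chip 1 alone that difference was -1.83, and without background correction the difference from citrate75 was 0.74. Since the citrate10 comparisons use the same citrate10 arrays, these differences are not independent of each other.

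The other members of the Slc1 family gave no called difference. The array held 6 of the 7 listed members and 3 were measured. Slc1a5, the carrier of glutamine and other neutral amino acids known as ASCT2, had 10.68, 10.88, 10.62, 10.72 and 10.91 on the citrate10 arrays, against 10.70, 10.83, 10.61 and 10.65 on the control arrays. The groups overlapped throughout, and the difference was 0.07 with a 95% interval of -0.10 to 0.24 (limma, adjusted p = 0.996). Slc1a6, a glutamate carrier known from Purkinje neurons, was near the floor, detected on 2 of 5 citrate10 and 2 of 4 control arrays, with a difference of -0.12 (interval -0.37 to 0.12). Slc1a1, Slc1a3 and Slc1a4 were detected on 0 of the 24 arrays, so the array gave no level for them. Of the other amino acid transport and glutamate genes, 5 of 29 on the array were measured and 0 were called, beside 0.0364% of all probes. They had 1 difference above 0 and 4 below, with a median of -0.12. The lowest was Slc38a7, a glutamine transporter, at -0.25 (interval -0.50 to 0.01).

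Slc1a2 is also an astrocyte marker, and no other marker of that cell type was measured. Of the 12 astrocyte markers on the array, Slc1a2 was the only one kept for testing, and Gfap, Aqp4 and Slc1a3 were each detected on 0 of the 24 arrays. The summed linear level of the 12 genes was 362 to 425 on the citrate10 arrays and 289 to 300 on the control arrays. Without Slc1a2 the sum of the remaining 11 was 252 to 259 on the citrate10 arrays and 248 to 257 on the control arrays. These 11 were not detected, so their sum is a background level and does not measure astrocyte RNA. Of the pericyte and fibroblast, microglia and leukocyte, and oligodendrocyte markers, 0 were measured. Of the 19 neuron markers 4 were measured, with differences from -0.10 for Rbfox3 to 0.00 for Nefm. Slc17a6 was detected on 5 of 5 citrate10 and 4 of 4 control arrays, and Nefm on 4 of 5 and 4 of 4. Rbfox3 (1 of 5 and 2 of 4) and Gad2 (2 of 5 and 2 of 4) were near the floor. The sums of all 19, mostly background as well, ran from 484 to 499 in citrate10 and from 496 to 501 in control.

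The label of the line could be checked only in part. Of 28 endothelial identity genes on the array 3 were measured, namely Thbd, Tie1 and Clec14a. Cdh5, Tek and Vwf, defining endothelial genes, were detected on 0 of the 24 arrays, and Cldn5, the main claudin of brain endothelium, was detected on 1 of 5 citrate10 arrays and 0 of 4 control arrays. Of 22 brain endothelial transporters Slc29a1, a nucleoside carrier, was measured, while Slc2a1, the glucose transporter of the barrier, was detected on 0 of the 24 arrays. Whether these absences reflect the line or the sensitivity of the probes was not tested. Missing detection was not limited to endothelial genes. Of 61 ribosomal protein genes on the array 24 were measured, and Rpl3 and Rplp0 were detected on 0 of the 24 arrays. The same held for Eno1 and Pkm of glycolysis. Of the junction genes 2 were measured. Tjp1 (ZO-1), a scaffold protein of tight junctions, had a mean of 10.25 ± 0.117 in citrate10 and 10.07 ± 0.115 in control, a difference of 0.17 (interval -0.03 to 0.36), and Vcl, an actin linker, differed by -0.05. Clec14a, an endothelial surface lectin, had means of 6.10 ± 0.067 in citrate10 and 6.11 ± 0.093 in control, and its difference was 0.00 (interval -0.19 to 0.19). Thbd, the anticoagulant thrombin receptor thrombomodulin, had 5.00, 5.63, 5.55, 5.41 and 5.25 on the citrate10 arrays, against 5.09, 5.05, 4.81 and 4.70 on the control arrays. Most citrate10 arrays lay above the control arrays but the groups overlapped, and the probe was detected on 4 of 5 citrate10 and 2 of 4 control arrays. Its difference of 0.46 (SE 0.134) was not called (limma, adjusted p = 0.959). In bulk RNA, fewer cells of a type and less RNA per cell cannot be told apart.

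Beyond Slc1a2 the fitted differences were small, and their size was bounded on the scale of the array signal. Of the 2748 tested probes 1942 were detected on all 9 arrays and 53 on none. Where a probe was not detected, its interval bounds the signal and not the transcript. The median difference over the 2748 probes was -0.00442, with 1329 above 0 and 1419 below. The median 95% interval reached 0.226 to either side, which is a factor of 1.17. The interval lay inside 1.5-fold in both directions for 2716 probes, 98.8% of those tested, and inside 2-fold for 2744. Those that reached past 2-fold were Slc1a2, Ephx1, Rps14 and 1 unnamed probe. Ephx1 encodes microsomal epoxide hydrolase, and its difference was -0.01 with an interval of -1.21 to 1.19. Rps14 encodes a protein of the small ribosomal subunit. It had a difference of 0.07 with an interval of -2.06 to 2.21, so this fit bounded neither gene closely. The fit estimates 1 spread per probe over all 24 arrays, so arrays outside the comparison can widen an interval. Both genes were detected on all 9 arrays here and on 23 of the 24. In PVP75 against control Rps14 differed by -1.57. Which arrays set the widths was not tested. Slc1a2 was the only probe whose estimate passed 1.5-fold, and the next largest estimate after Slc1a2 was that of Lpar2.

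Small p-values were no more frequent than chance would give. An unadjusted p under 0.05 was reached by 114 probes, 4.15% of those tested, 53 higher and 61 lower in citrate10, where 137.4 would be expected if no probe differed. The arrays of the groups did not overlap for 48 probes, 1.75% of those tested, with citrate10 higher in 19 and lower in 29. Apart from Slc1a2 none of these was called. Bicra, a chromatin remodelling subunit, was the 1 probe detected on 5 of 5 citrate10 and 0 of 4 control arrays. Its difference was 0.31 (interval 0.06 to 0.56, limma adjusted p = 0.996), and 0 probes were detected the other way round.

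**Figure D2:**
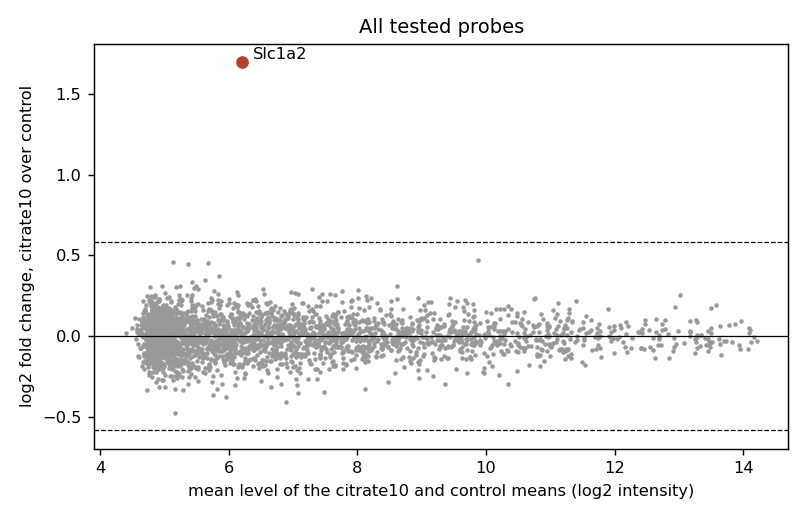
Log2 fold change of citrate10 over control against the mean level (log2 intensity) for the 2748 tested probes, with dashed lines at 1.5-fold. Slc1a2, at 1.70, is the only point outside the lines.

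The genes that came next by p-value are given as values, since none was called. Gla, which encodes the lysosomal enzyme alpha-galactosidase A, had 5.42, 5.64, 5.48, 5.78 and 5.63 on the citrate10 arrays, against 5.35, 4.95, 5.21 and 5.14 on the control arrays. All citrate10 arrays lay above all control arrays, by a narrow gap at the nearest pair. The difference was 0.45 with a 95% interval of 0.20 to 0.70, or 1.36-fold (limma, adjusted p = 0.828). Mib1, a ubiquitin ligase that acts on Notch ligands, had levels between 5.97 and 6.10 on the 5 citrate10 arrays and 5.59, 5.74, 5.55 and 5.78 on the control arrays. Its citrate10 arrays were tightly grouped above the control arrays, and the difference was 0.37 (interval 0.16 to 0.59, adjusted p = 0.828). Psmb2, a catalytic-ring subunit of the proteasome, had 7.41, 7.40, 7.59, 7.32 and 7.42 on the citrate10 arrays and 7.17, 7.21, 7.01 and 7.24 on the control arrays. The groups did not overlap, and the difference was 0.29 (interval 0.09 to 0.49, adjusted p = 0.996). Gfpt1, the first enzyme of hexosamine synthesis, differed by 0.26 and Sqle, the squalene epoxidase of sterol synthesis, by 0.24, both without overlap of the arrays. The remaining genes with positive estimates in this set were Rpl13a (0.28), Klf4 (0.34), Prkaa1 (0.23) and Sgk1 (0.25). Their arrays overlapped between the groups.

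On the other side, Lpar2, a receptor for lysophosphatidic acid, had 4.79, 4.67, 4.66, 5.25 and 5.29 on the citrate10 arrays, against 5.04, 5.45, 5.70 and 5.39 on the control arrays. Arrays 4 and 5 of citrate10 lay within the control range and the probe was detected on 2 of 5 citrate10 and 4 of 4 control arrays, so the low citrate10 values are near the floor. Its difference was -0.47 (interval -0.73 to -0.22, limma adjusted p = 0.828). Rcbtb2 had 10.16, 10.29, 9.94, 10.22 and 10.33 on the citrate10 arrays and 10.45, 10.53, 10.51 and 10.52 on the control arrays. The control arrays were closely grouped above all citrate10 arrays, and the difference was -0.30 (interval -0.47 to -0.12, adjusted p = 0.836). Atad1, an ATPase that pulls misplaced proteins from the outer mitochondrial membrane, had 6.71, 6.81, 6.53, 6.60 and 6.76 on the citrate10 arrays and 6.99, 7.03, 7.23 and 7.12 on the control arrays. The groups did not overlap, and the difference was -0.41 (interval -0.68 to -0.14, adjusted p = 0.996). Canx, the glycoprotein chaperone calnexin of the endoplasmic reticulum, differed by -0.33, Abi1, an actin regulator, by -0.33 and Ndfip1, an adaptor of ubiquitin ligases, by -0.26, each without overlap. The remaining genes with negative estimates in this set were Cyp4a1 (-0.28), Slc39a10 (-0.30), Chd1 (-0.38) and Rock2 (-0.30), with overlap. On chip 1, which held 1 control array, Rock2 differed by -0.69 and Chd1 by -0.65, against -0.09 and -0.24 on chip 2. Cyp4a1 (-0.29 and -0.27) and Slc39a10 (-0.31 and -0.28) were alike on chips 1 and 2. For Slc39a10, a zinc importer, control array 4 at 7.56 stood above the other control arrays, which lay between 7.07 and 7.14, and the citrate10 arrays ran from 6.75 to 7.08.

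**Figure D3:**
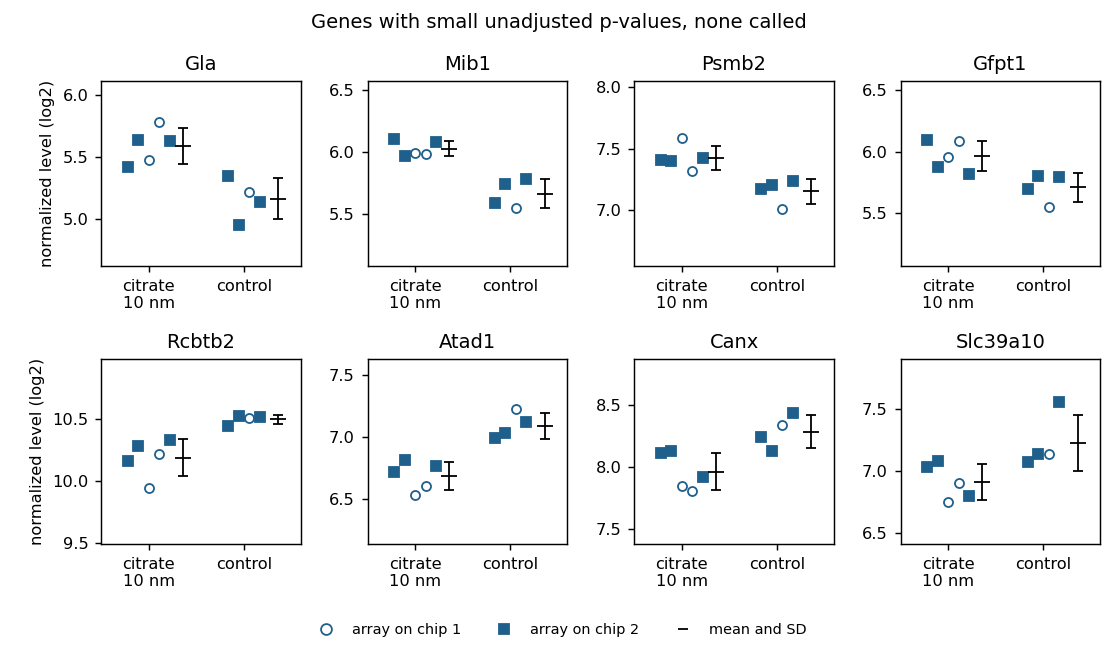
Normalized level (log2 intensity) on each array, citrate10 left of control, for 8 genes with small unadjusted p-values that were not called, with open circles for chip 1, filled squares for chip 2, and the mean with its SD beside each group. All panels span 1.5 log2 units. Only Slc39a10 has overlapping groups here.

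Genes of metal handling and oxidative defence, the groups closest to silver, held 0 called members, beside 0.0364% of all probes. At that share lists of this length would be expected to hold 0, so nothing is read from this count. The metal list had 35 genes on the array, of which 7 were measured, with 4 differences above 0, 3 below and a median of 0.05. Mt1, the main metallothionein, was detected on 0 of the 24 arrays, and Mt3 on 0 of the 9 arrays here. The zinc carrier Slc30a2 differed by -0.20, the copper carrier Slc31a2 by 0.08 and the iron exporter Slc40a1 by 0.19. NRF2 is a transcription factor released to act when thiols of its sensor KEAP1 are modified. Of its targets 11 of 40 were measured, with 8 above 0, 3 below and a median of 0.09. The interval lay inside 1.5-fold for 10 of the 11, the exception being Ephx1. Gstp1, a glutathione transferase, had 11.38, 11.54, 11.47, 11.60 and 11.50 on the citrate10 arrays, against 11.50, 11.03, 11.24 and 11.40 on the control arrays. The groups overlapped and the difference was 0.21 (interval 0.03 to 0.40, limma adjusted p = 0.996). Sqstm1, the autophagy receptor p62, differed by 0.08 (interval -0.16 to 0.32), and Akr1c12, an aldo-keto reductase, by 0.19. Hmox1, Nqo1, Gclm, Txnrd1 and Srxn1, the usual reporters of this pathway, were detected on 0 of the 24 arrays and so were not measured in either group. Among other antioxidant genes 6 were measured, with a median of 0.05, and Sod1, the copper and zinc superoxide dismutase, differed by -0.08 (interval -0.35 to 0.19).

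Genes of protein quality control likewise held 0 called members, beside 0.0364% of all probes. Of the heat shock genes 10 were measured, with 6 above 0, 4 below and a median of 0.01. Hspb1, the small heat shock protein HSP27, had a mean of 10.05 ± 0.187 in citrate10 and 10.02 ± 0.0937 in control, a difference of 0.01 (interval -0.24 to 0.27). Hspa1b, the inducible HSP70 gene, was detected on 0 of the 24 arrays. Of the endoplasmic reticulum stress genes 7 were measured, with a median of 0.00. Hspa5, the chaperone BiP, differed by 0.00 (interval -0.24 to 0.24). Its probe was near the floor, detected on 4 of 5 citrate10 and 3 of 4 control arrays, so the interval bounds a weak signal. The proteasome had 20 measured members, 12 above 0 and 8 below, with a median of 0.02 and all 20 intervals inside 1.5-fold. Of its measured members 15 were detected on all 9 arrays. Psmd2 (0.31) and Psmb2 were the 2 of 20 proteasome genes whose arrays did not overlap, with citrate10 higher, beside 1.75% of all probes, and neither was called. The lysosome, proton pump and autophagy list had 12 measured members, 11 above 0 and 1 below, with a median of 0.09 beside the -0.00442 of all probes. Its largest estimates were those of Gla, Atp6v1b2 (0.25), a subunit of the vacuolar proton pump, and Ulk1 (0.20), the kinase that starts autophagy.

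The remaining lists held 0 called members as well, beside 0.0364% of all probes. Immediate early and growth response genes had 12 measured members, 8 above 0 and 4 below, with a median of 0.10, led by Klf4, Junb (0.29) and Sgk1. Junb, an AP-1 subunit, had 8.05, 8.31, 8.10, 7.99 and 8.27 on the citrate10 arrays and 8.02, 8.14, 7.70 and 7.63 on the control arrays, with overlapping groups, and Fos and Egr1 were detected on 0 of the 24 arrays. Cell cycle genes had 14 measured members, 8 above 0 and 6 below, with a median of 0.00 and all 14 intervals inside 1.5-fold. Among them 10 were detected on all 9 arrays. Of the p53 and apoptosis genes 7 were measured, and their differences ran from -0.03 to 0.07. Only 4 of the 7 were detected on all 9 arrays, so this range includes probes near the floor. The 4 measured inflammation genes ran from -0.01 for Irak1 to 0.26 for Nfkb1, and Icam1, Vcam1, Il6 and Ccl2 were detected on 0 of the 24 arrays. Endocytosis and vesicle traffic, the route by which particles enter cells, had 29 measured members, 14 above 0 and 15 below, with a median of -0.01 and all 29 intervals inside 1.5-fold. This list had 25 members detected on all 9 arrays. Its lowest member was Ap2s1, a subunit of the clathrin adaptor AP-2, at -0.18, and its highest was Arf6, a small GTPase of membrane recycling, at 0.29. Extracellular matrix and TGF-beta genes had 8 measured members with a median of 0.14, 6 above 0 and 2 below, and ran from -0.22 for Col5a1 to 0.18 for Itgb1. Ribosomal proteins (24 measured, median 0.03), oxidative phosphorylation (19 measured, median 0.01) and hypoxia and glycolysis (6 measured, median 0.02) had medians close to that of all probes. The probe for Gapdh, often used as a reference gene, was detected on 0 of 5 citrate10 and 0 of 4 control arrays.

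**Figure D4:**
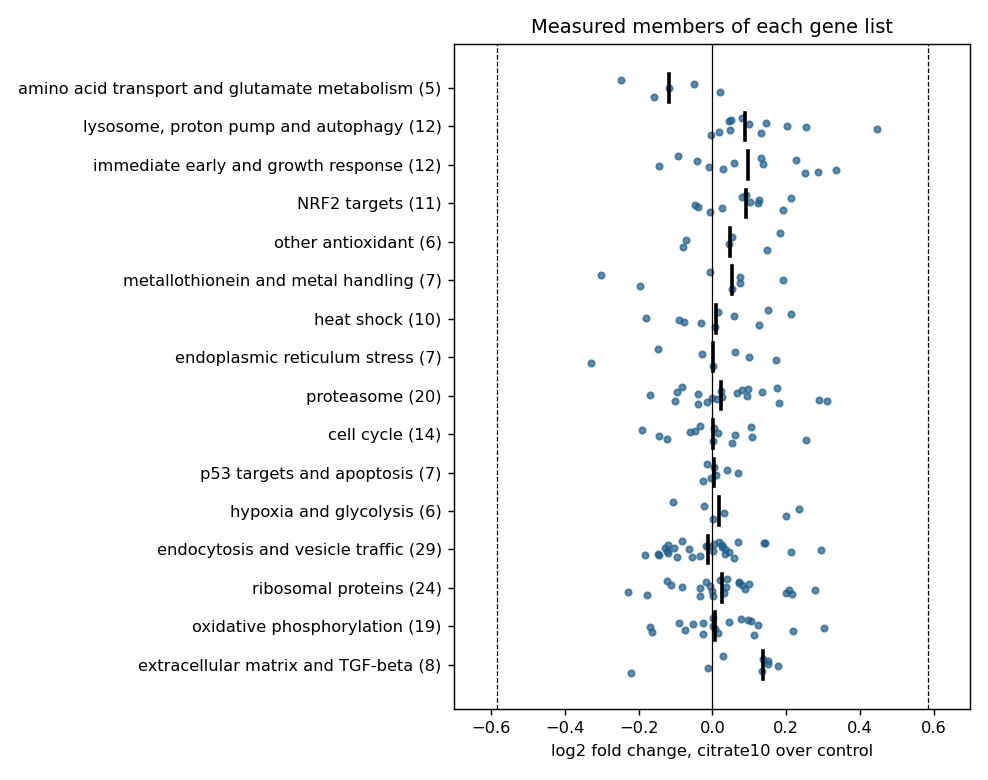
Log2 fold change of citrate10 over control for the measured members of the gene lists with at least 5 of them (number in brackets), leaving out the stress and barrier panel and the list of genes that led the PVP comparisons. Slc1a2, a member of the PVP list, is not drawn. A black bar marks each list's median, dashed lines mark 1.5-fold, and all points drawn lie inside the lines.

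At the same size, dose and time the citrate10 and PVP10 groups, which are labelled by their coating, differed widely. The cause was not tested. Citrate10 against PVP10 called 1148 of 2748 probes, 41.8%, with citrate10 higher in 591 and lower in 557, in a comparison that uses no control array. Of the 20 measured proteasome genes 14 were lower in citrate10 than in PVP10 and 0 were higher, with a median of -0.39. Of 14 cell cycle genes 10 were higher and 1 was lower, with a median of 0.46. Of 12 lysosome and autophagy genes 7 were lower and 1 was higher, and of 10 heat shock genes 6 were lower and 0 higher. On chip 1 alone 516 probes were called.

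The list of 30 genes that led the PVP comparisons was drawn from earlier results on these arrays, so their PVP values are a description. PVP10 against control called 1148 probes (41.8%) and PVP75 against control 149 (5.42%), and both share the control arrays with the citrate10 comparison. Citrate75 against control called 0 of 2748 probes. In citrate10 against control, 1 of the 30 was called, namely Slc1a2, beside 0.0364% of all probes. The median of the 30 was 0.02, with 17 above 0 and 13 below, and 28 of the 30 intervals lay inside 1.5-fold. The arrays did not overlap for 4 of them, Slc1a2, Gla and Psmb2 with citrate10 higher and Pparg with citrate10 lower, beside 1.75% of all probes. The list was chosen on results that include these control arrays, so nothing is read from this count.

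Sqstm1 illustrates the contrast among these genes. It had 6.02, 5.84, 6.12, 5.98 and 6.13 on the citrate10 arrays, 8.97, 9.17, 9.16, 8.66 and 8.91 on the PVP10 arrays, and 6.13, 5.79, 5.75 and 6.01 on the control arrays. The citrate10 arrays lay among the control arrays and far below the PVP10 arrays. The difference from control was 0.08 in citrate10, 3.03 in PVP10 and 1.58 in PVP75. Citrate10 was below PVP10, with a difference of -2.95 on the log2 scale. Nfix, a nuclear factor I transcription factor, had 8.37, 8.15, 8.22, 7.99 and 8.05 on the citrate10 arrays, 6.16, 6.06, 5.72, 5.97 and 5.37 on the PVP10 arrays, and 8.12, 8.12, 8.05 and 8.44 on the control arrays. Here too the citrate10 and control arrays overlapped, and citrate10 was 2.30 above PVP10. Sqstm1 had the lowest and Nfix the highest difference of all tested probes in citrate10 against PVP10. Both belong to the list drawn from the PVP results of these arrays, so no p-value is given for them. For Slc1a2, by contrast with these genes, the differences from control were 1.70 in citrate10, 4.19 in PVP10, 3.45 in PVP75 and 0.30 in citrate75. Gla differed from control by 0.45 in citrate10, 1.07 in PVP10, 0.37 in PVP75 and 0.13 in citrate75, and Slc39a10 by -0.30, -2.11, -1.28 and -0.19 in the same order.

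**Figure D5:**
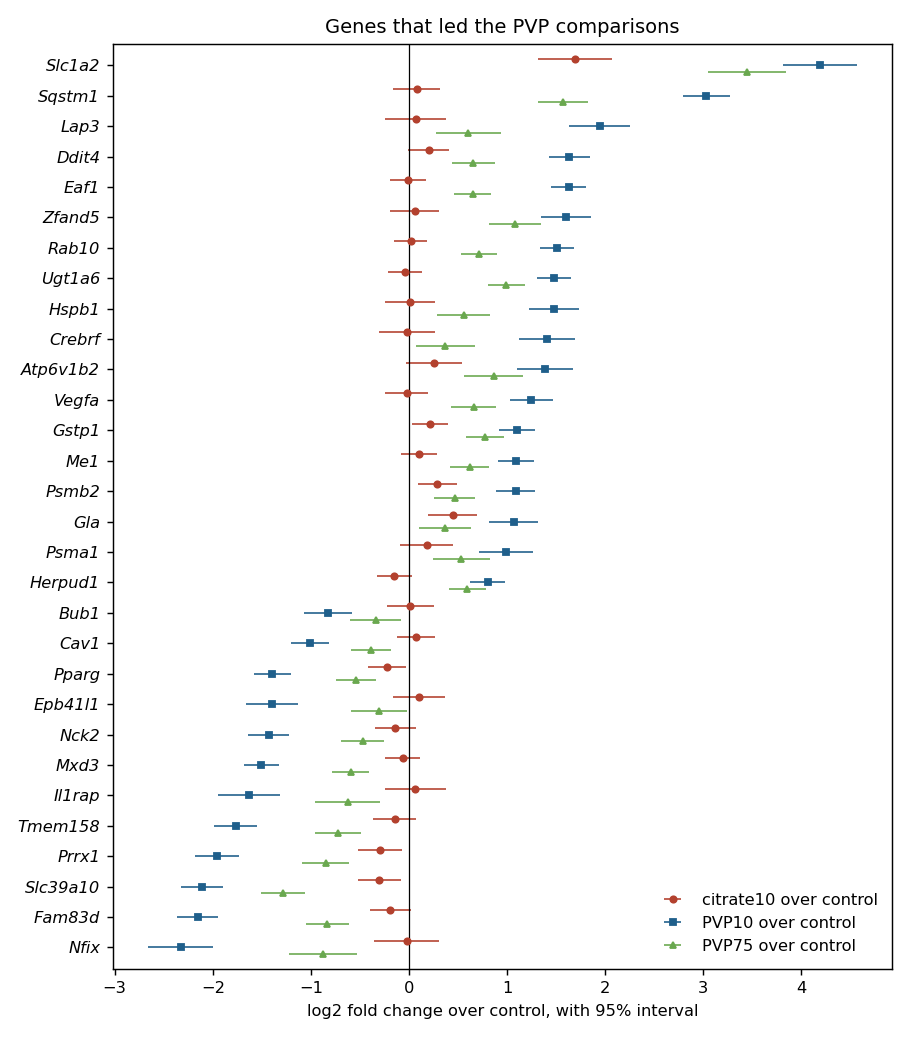
Log2 fold change over control with its 95% interval in citrate10 (circles), PVP10 (squares) and PVP75 (triangles) for the 30 genes that led the PVP comparisons, ordered by the PVP10 value. The 3 comparisons share the control arrays. In citrate10 Slc1a2 is at 1.70 and the other genes lie between -0.30 and 0.45.

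Against the larger particle with the same coating, the number of differing probes depended on the settings. Citrate10 against citrate75 called 4 of 2748 probes, 0.146%, 3 higher and 1 lower in citrate10, also without control arrays. The named genes among them were Slc1a2, given above, and Tbc1d20, a GTPase-activating protein for Rab proteins, which had a mean of 6.28 in citrate10 and 6.74 in citrate75, a difference of -0.44 (SE 0.0923, limma adjusted p = 0.0364). The others were unnamed probes at 0.55 and 0.66. Tbc1d20 differed from control by -0.14 in citrate10 (adjusted p = 0.996). With array weights the count was 72 (31 higher, 41 lower), and without background correction it was 9. It was 1 without citrate10 array 3 or 4 or citrate75 array 1 or 5, 2 without citrate10 array 1, 7 without citrate75 array 2 and 17 without citrate75 array 3. Slc1a2 was called in all of these fits. Where the count was 1, as on each chip alone and without the detection filter, Slc1a2 was that call and Tbc1d20 was not called.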

How the data were processed

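RNA from 24 arrays was measured on Illumina rat BeadChips. The deposited table, per the file headers, gives a bead intensity on a linear scale and a detection p-value for each probe. Its values showed no background subtraction and no normalization. The submitters' processing notes name GenomeStudio 2011.1, and any other step is not given in the sources used here. The authors' second deposited table holds quantile-normalized intensity values, as read from the values, and served as an alternative.

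Background was corrected by normexp with an offset of 16, guided by the detection p-values (R 4.3.3 with limma 3.58.1), and values were taken to log2 and quantile normalized. Probes with a detection p under 0.01 on at least 4 of the 24 arrays were kept, which left 2774 probes, 12.3% of the array. Where several probes of a gene were kept, the brightest stood for it, giving 2748 tested entries (1942 named genes, 806 unnamed probes). Names came from the platform's annotation, in which 13793 probes have 1 gene symbol and 8730 have none. A linear model with 5 groups and the chip as terms was fitted to all 24 arrays (lmFit, eBayes), with Benjamini-Hochberg adjustment over the 2774 kept probes and calls at an adjusted p under 0.05. Group means are not adjusted for the chip and differences are. The code was run on simulated data with independent noise and no chip effects, as a check of the code and not of power in these data. Intervals are at 95%, and the number of arrays limits the precision.

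Named genes were the called ones, the 10 with the smallest p in each direction if every array of the higher group detected them, all measured members of the Slc1 family, a stress and barrier panel and the PVP list, and up to 4 members of each further list by p, or all members of lists with fewer than 5. Of the 30 panel genes on the array 7 were measured and 0 called, beside 0.0364% of all probes. The genes named as not detected, and Bicra, Rps14, Ephx1 and Tbc1d20, were chosen after their values were seen. The members and lists were chosen with earlier results of these data known. Replicate numbers were checked for pairing. Deviations of same-numbered arrays of citrate10 and control correlated between -0.17 and 0.01. Those of differently numbered arrays correlated between -0.24 and 0.37. No pairing by number was seen and no block was used, but so few pairs cannot exclude it. Alternatives covered the background correction, offset, detection filter, arrays fitted, chip term, array weights, each chip alone and each array left out. Sequences are from RefSeq (GRCr8).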

Additional observations from a re-analysis of the deposited data

Results flagged for a closer look

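Among the named genes, 9 array values in citrate10 or control stood apart from the rest of their group by Dixon's test, out of 234 gene and group combinations. At a rate of 1 in 20 chance alone would give 11.7. Control array 4 held 5 of them. It was high for Slc39a10 (7.56, the others between 7.07 and 7.14), Hspb1 (10.16, the others between 9.97 and 9.98) and Vcl (5.10, the others between 4.85 and 4.88), and low for Crebrf (4.65, the others between 4.83 and 4.86) and Rpl24 (4.65, the others between 5.27 and 5.36). Citrate10 array 3 was high for Slc40a1 (5.82, the others between 5.41 and 5.50) and low for Kif22 (10.13, the others between 10.31 and 10.32). Citrate10 array 1 was high for Traf6 (5.68, the others between 5.07 and 5.24), and citrate10 array 5 was low for Clec14a (5.99, the others between 6.12 and 6.16). None of these genes was called, and Slc1a2 had no such array in either group.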

How the results depend on the processing

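The count of 1 probe called in citrate10 against control, Slc1a2, was obtained in every alternative run and with each of the 9 arrays left out (1 to 1). Slc1a2 itself lay between 1.61 (without citrate10 array 4) and 1.79 (without citrate10 array 1) with an array left out, where its highest adjusted p was 2.05e-05 (limma), and over all alternatives its highest adjusted p was 0.0451. With the replicate block, whose numbers showed no pairing of the samples, it was 1.75 (limma, adjusted p = 9.51e-08) and the count was 1. Against citrate75 the count of 4 was 9 without background correction, 8 with an offset of 50, 9 in the authors' normalized values, 1 without the detection filter, 2 with the arrays of the compared groups only, 8 without the chip term, 8 with chip as a random block, 1 on chip 2, 1 on chip 1 (chosen after seeing the data) and 72 with array weights, and ran from 1 to 17 with an array left out. The cause was not tested. Against PVP10 the count was 516 on chip 1 alone, where fewer arrays enter, and 1060 to 1098 with an array left out. Slc1a2 kept its direction and call against the other particles, from 1.29 to 1.48 against citrate75, from -2.71 to -2.33 against PVP10 and from -1.86 to -1.67 against PVP75 with an array left out. For the other 116 named genes, 2544 of 2656 values over the alternatives moved by less than a standard error, 112 moved by more, and 0 were called. Detection limits what is covered, since 12.3% of probes were detected often enough to be tested. Why the other probes were not detected was not tested.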
